A study of Mus musculus with 22 samples.

Results

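The genes described here are 34 markers of T cells, natural killer (NK) and other cytotoxic lymphocytes, B cells and leukocytes in general, out of 18193 genes measured in mouse samples on Affymetrix arrays. Each gene was taken as the probe set annotated to its symbol, and where a gene had several, the brightest on average across all 22 arrays was used, passing over sets of the cross-hybridizing type when another was listed. A probe set was annotated to 33 of the 34, and Lck was the member not measured. The measured members were 10 T cell genes, 10 NK and cytotoxic genes, 9 B cell genes and 4 pan-leukocyte genes.

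The study set sorted cells of a lung tumour line against normal lung. The line, A2C12, comes from a mouse doubly transgenic for c-myc and c-raf on a C57BL/6 background, and the side population (SP), the fraction that keeps out the dye Hoechst, was sorted from it by flow cytometry. The groups were 3 samples of SP cells treated with a monoclonal antibody against mouse EpCAM at 100 µg/ml for 48 h before the sort, 3 samples of untreated SP cells, and 16 lungs from C57BL/6 mice without the transgenes, of which 8 carry the label male and 8 female, pooled here. All cell samples come from 1 line, and their spread is not that between tumours. The ages of the mice are not given in the sources used here, and the lungs were numbered 1 to 16 in order of deposit.

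T cells recognize antigen through a receptor whose signal passes through the CD3 chains, which carry it to the kinases LCK and ZAP70 and the adaptor LAT. B cells use a membrane immunoglobulin in the same way, coupled to CD79A and CD79B and on to the kinase BLK and the adaptor BLNK. NK cells and cytotoxic T cells share a granule programme of granzymes and perforin, set up by the transcription factors T-bet (Tbx21) and eomesodermin (Eomes). Lung holds resident and blood-borne lymphocytes of all these kinds, whereas epithelial tumour cells are not known for their receptor genes.

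The sequences before the transcription start of 4 members are shown because these genes stood for the pairs and groups that varied together across the lungs: the neighbouring CD3 chain genes Cd3d and Cd3g, the granule membrane gene Nkg7 and the B cell receptor gene Cd79a. Each is the 250 bases before the start, 5′ to 3′ in the gene's own direction, from RefSeq on GRCm38.p6. Capitals mark the words CAGGAAG, of the kind bound by ETS factors, CAGGTG, an E-box, and AGGTGTGA, of the kind bound by T-box factors, on either strand.
Cd3d (chr9:44981536-44981785, + strand): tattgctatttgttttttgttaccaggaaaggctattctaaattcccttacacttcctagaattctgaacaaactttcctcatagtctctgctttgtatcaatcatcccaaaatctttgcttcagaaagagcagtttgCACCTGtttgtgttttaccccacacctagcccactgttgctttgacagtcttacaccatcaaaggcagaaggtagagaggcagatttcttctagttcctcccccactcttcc
Cd3g (chr9:44980432-44980681, - strand): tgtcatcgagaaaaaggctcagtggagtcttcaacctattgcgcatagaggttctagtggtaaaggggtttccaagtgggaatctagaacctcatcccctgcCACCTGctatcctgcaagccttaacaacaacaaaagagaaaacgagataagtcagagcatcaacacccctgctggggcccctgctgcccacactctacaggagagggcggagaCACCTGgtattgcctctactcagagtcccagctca
Nkg7 (chr7:43436888-43437137, + strand): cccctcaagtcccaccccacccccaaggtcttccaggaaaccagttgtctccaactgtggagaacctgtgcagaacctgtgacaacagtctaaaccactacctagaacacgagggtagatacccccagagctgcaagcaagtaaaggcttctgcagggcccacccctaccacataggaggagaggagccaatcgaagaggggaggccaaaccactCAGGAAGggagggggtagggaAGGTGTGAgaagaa
Cd79a (chr7:24897247-24897496, + strand): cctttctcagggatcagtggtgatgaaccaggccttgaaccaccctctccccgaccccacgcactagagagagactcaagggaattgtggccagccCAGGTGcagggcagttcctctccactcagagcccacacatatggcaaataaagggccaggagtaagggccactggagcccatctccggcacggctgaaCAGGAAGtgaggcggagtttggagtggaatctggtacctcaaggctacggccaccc

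Cd3d and Cd3g lie head to head, with 1355 bases between their starts, and hold 1 and 2 matches to the E-box word, all on the opposite strand. The CAGGAAG match of Nkg7 begins 35 bases before the start, followed by its AGGTGTGA match 14 bases before the start. Cd79a holds CAGGTG 154 bases and CAGGAAG 56 bases before the start. RefSeq windows were found for 23 of the 33 measured members. Of these, 47.8% held CAGGAAG on either strand, against 12.1% of the 27025 genes of the table. CAGGTG was in 52.2% of the members' windows and 19.4% of all genes, and AGGTGTGA in 4.35% and 1.3%. These 3 words are among 12 that were tried and were picked after the counts were seen, so the shares describe the windows and are not evidence of binding.

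Values are the deposited PLIER intensities, on a linear scale. Changes are given on the scale of log2(intensity + 16) once arrays had been quantile normalized, and the offset makes the changes of dim genes smaller. A gene was called against lung when the limma adjusted p was under 0.05 and the change at least 2-fold. The 40th percentile of an array, which lay at an intensity of 24.6 to 25.8 on the cell arrays and 30.1 to 33.7 on the lung arrays, served as the floor below which a probe set was not ranked. Where all 3 arrays of a cell group lay under the floor, the difference is given as a lower bound computed against it. In bulk samples, fewer cells of a type and less RNA per cell cannot be told apart.

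Lungs 3 and 4 stood apart from the others before any result is read. Labelled male, they had intensities of 1512 and 1583 for Xist, the RNA of the inactive X chromosome, and of 8.27 and 9.46 for the Y-linked gene Uty, against 12.7 to 24.0 for Xist and 722 to 1253 for Uty in the other 6 male-labelled lungs. They also had the highest macrophage marker means, 0.73 and 0.79 above the average of the lungs on the log2 scale over 9 genes, and the lowest endothelial means, at -0.30 and -0.68 over 7 genes. The lungs were further split into 2 sets at the largest gap in the values of the 3′ probe set of the Actb control. This control read 10506 to 11307 in lungs 1 to 4 and 9 to 12, and 7920 to 9957 in lungs 5 to 8 and 13 to 16. The gap between the sets was little wider than that between 8157 and 8655, lungs 7 and 6, inside the lower set. The labels do not say what these sets are, and some correlations across lungs are given with the means of the sets removed. Leaving out lungs 3 and 4 together was done across lungs for the tests of gene pairs alone. The spread of genes, the medians of groups of pairs, the closest genes and the marker averages include both lungs. Where label means were removed, lungs 3 and 4 stayed among those labelled male.

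Transcripts of most antigen receptor and granule genes, though not of perforin (Prf1), were near the bottom of the scale in both cell groups and well above it in lung. Against lung, 27 of the 33 measured members were lower in antibody-treated cells and 2 were higher, where 23.9% of the 15138 genes tested were lower and 17.2% higher. In untreated cells 27 were lower and 2 higher, against 23.7% and 17.8% of the 15197 genes tested. The members' median change was -3.19 in antibody-treated cells and -3.30 in untreated cells, where the median over all 18193 genes was 0.05 and 0.07. Both comparisons use the same 16 lungs, so their likeness is partly shared data.

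On the cell arrays, 23 members lay under the floor on all 6, and 20 of these were above it on all 16 lung arrays. For those 20 the shortfall in untreated cells was at least 2.22-fold for Il2rb and at least 266-fold for Ighm, with a median bound of 9.94-fold. The members above the floor on all 6 cell arrays were 4: Zap70, Prf1, Eomes and Pax5. The 23 under the floor entered the tests against lung through their lung values alone, so lower was the only direction they could be called in. Their calls and adjusted p values restate that they were under the floor in the cells and above it on lung arrays.

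**Figure D1:**
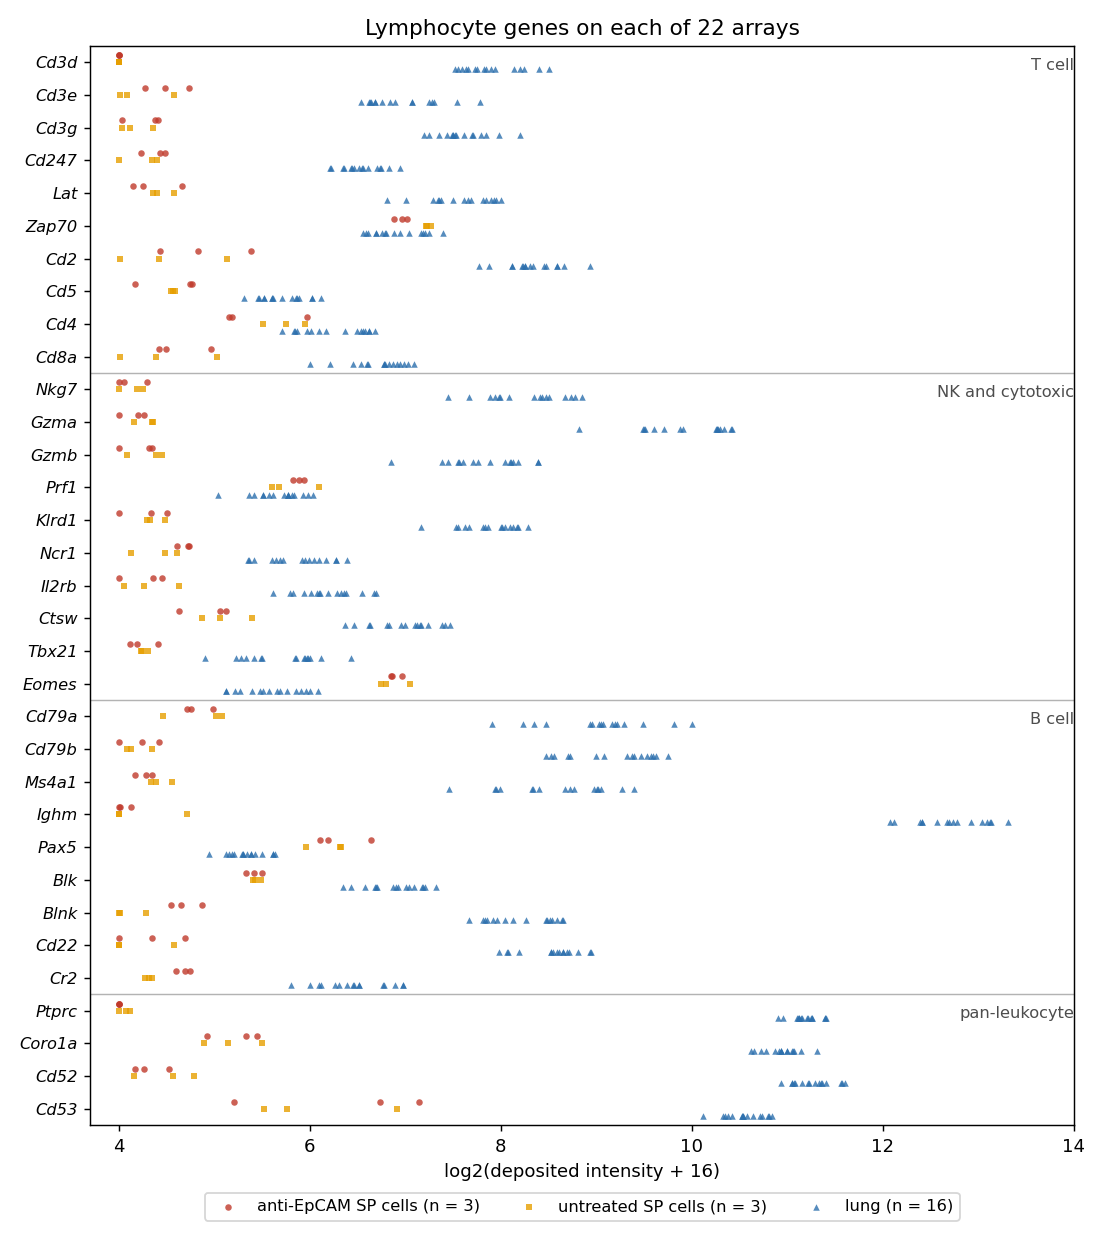
Intensity of the 33 measured lymphocyte genes on each of 22 arrays, as log2(deposited intensity + 16) on the horizontal axis, with 1 row per gene and lines between the T cell, NK and cytotoxic, B cell and pan-leukocyte genes. Each point is 1 array: circles for 3 antibody-treated and squares for 3 untreated SP cell samples, triangles for 16 lungs; the cell points sit left of the lung points for most genes and right of them for Eomes and Pax5.

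Among T cell genes, 7 of the 10 measured were lower in each cell group and none was higher. Cd3d, a chain of the T cell receptor complex, read 0.00394, 0.00411 and 0.0368 in antibody-treated cells and 0.00425, 0.0109 and 0.00956 in untreated cells, against a lowest, median and highest of 167, 212 and 348 in lung. No cell array came near a lung array, and the level in untreated cells was at least 8.82-fold lower. Cd3e, another chain of that complex, read 3.35, 6.35 and 10.6 in antibody-treated cells and 0.0882, 1.00 and 7.87 in untreated cells, against 77.0 to 204 in lung with a median of 100.2. Cd3g averaged 3.45 ± 2.72 and 2.06 ± 2.14 in antibody-treated and untreated cells (SD, n = 3 each), against 181 ± 38.1 in lung (SD, n = 16). The adaptor gene Lat and the adhesion receptor gene Cd2 were lower by -3.07 and -3.28 in antibody-treated cells and by -2.97 and -3.66 in untreated cells on the log2 scale. Cd247, the zeta chain, averaged 4.89 ± 1.91 in antibody-treated and 3.13 ± 2.72 in untreated cells, against 78.0 ± 13.9 in lung. The other Cd247 sets, dim in cells and lung and not past the filter, were not lower. They changed by 0.48 and 0.64, by 0.25 and 0.45 and by 0.04 and 0.35 in antibody-treated and untreated cells. Cd8a, the coreceptor of cytotoxic T cells, changed by -1.91 and -2.06 on the log2 scale. Its other sets did not all reach 2-fold: one changed by -1.41 and -1.13, another by -0.96 and -0.67, and 2 of the cross-hybridizing type by 0.09 and 0.11 and by -0.17 and -0.50.

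The other 3 T cell genes were not called because each changed by less than 2-fold. Cd5, a brake on receptor signalling, changed by -0.99 in both cell groups, just short of 2-fold. It was under the floor on all 6 cell arrays. Its probe set was itself under the floor on 6 of the 16 lung arrays. Cd4, the coreceptor of helper T cells, changed by -0.58 and -0.25 at limma adjusted p = 0.0151 and 0.270, and its cell and lung values overlapped. A second Cd4 set changed by -0.92 and -0.89, also under 2-fold, with all cell values, 13.1 to 19.3, below all lung values, 30.2 to 76.7, and had r = 0.13 with the set used across lungs. Zap70 read 109, 113 and 102 in antibody-treated cells and 138, 133 and 133 in untreated cells, against 78.2 to 152 in lung with a median of 98.3. Its log2 change was 0.32 in antibody-treated and 0.60 in untreated cells, at limma adjusted p = 0.0889 and 0.00279, with 95% intervals between -0.03 and 0.67 and between 0.24 and 0.95. A second Zap70 probe set went the other way, with means of 9.65 ± 1.89 and 5.47 ± 4.83 in antibody-treated and untreated cells and 56.4 ± 9.42 in lung, and the limma log2 changes of that set were -1.31 and -1.61. These 2 sets had r = -0.41 across the 16 lungs. Another Zap70 set, of the cross-hybridizing type, was also lower, by -1.03 in antibody-treated cells and by -0.82, under 2-fold, in untreated cells. It had r = 0.06 with the set used across lungs. The set used thus changed upward and the other Zap70 sets downward, so the arrays do not give 1 direction for this gene.

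Of the 10 NK and cytotoxic genes, 8 were lower in each cell group and 1 was higher. Gzma, a granule protease of NK and cytotoxic T cells, read 2.41, 3.12 and 0.0248 in antibody-treated cells and 4.32, 4.44 and 1.81 in untreated cells, against 435 to 1352 in lung with a median of 1074. Its log2 change was -5.73 ± 0.24 in antibody-treated and -5.58 ± 0.24 in untreated cells (SE). Gzma was under the floor on all 6 cell arrays, so lower was the only direction it could be called in. Nkg7, a granule membrane protein of the same cells, read 0.571, 3.63 and 0.0136 in antibody-treated cells and 2.23, 3.01 and 0.00614 in untreated cells, against 158 to 444 in lung with a median of 316. All cell values of both genes lay below every lung value. Gzmb, another granzyme, and Klrd1, the CD94 chain of NK receptors, changed by -3.49 and -3.48 in antibody-treated cells and by -3.37 for each in untreated cells. Changes for the NK receptor gene Ncr1, the interleukin 2 receptor chain gene Il2rb, the granule protease gene Ctsw and Tbx21 lay between -1.02 and -1.85 in antibody-treated cells and between -1.31 and -1.71 in untreated cells. A second Il2rb set changed by -0.88 and -0.69, under 2-fold, and had r = -0.04 with the set used across lungs.

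Eomes and Prf1 did not follow. Eomes read 100.1, 109 and 99.2 in antibody-treated cells and 116, 91.4 and 95.3 in untreated cells, against 18.8 to 52.0 in lung with a median of 32.9. No cell value overlapped a lung value, the log2 change was 1.56 and 1.55, and a second probe set of Eomes gave 1.42 and 1.39. Perforin (Prf1) averaged 42.9 ± 2.36 in antibody-treated and 40.1 ± 10.8 in untreated cells, against 35.4 ± 8.65 in lung, and its log2 changes of 0.49 and 0.39, at limma adjusted p = 0.00499 and 0.0222, were under 2-fold. Its second probe set read 22.6 ± 5.37, 20.0 ± 3.17 and 35.3 ± 8.13 in the same order, with changes of -0.18 and -0.30. Eomes was itself under the floor on 8 of 16 lung arrays, and Prf1 on 5.

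B cell genes gave the largest difference of the set. The heavy chain gene of immunoglobulin M, Ighm, read 0.0115, 1.45 and 0.122 in antibody-treated cells and 0.0340, 10.3 and 0.0242 in untreated cells, against 4279 to 10140 in lung with a median of 6695. Its log2 change was -8.68 ± 0.21 and -8.45 ± 0.21 (SE). Ighm was under the floor on all 6 cell arrays, so lower was the only direction it could be called in. The signalling chains of the B cell receptor were lower as well: Cd79a averaged 12.3 ± 3.01 and 13.3 ± 6.43 in antibody-treated and untreated cells, against 534 ± 206 in lung. Cd79b averaged 2.78 ± 2.69 and 2.23 ± 1.88 in the cells, against 583 ± 171 in lung. Ms4a1, which encodes CD20, read 3.45, 1.91 and 4.30 in antibody-treated cells and 7.52, 4.14 and 4.86 in untreated cells, against 159 to 656 in lung with a median of 399. A second Ms4a1 probe set gave log2 changes of -3.55 and -3.59 beside the -4.22 and -4.05 of the first. The adaptor gene Blnk, the inhibitory receptor gene Cd22, the complement receptor gene Cr2 and the kinase gene Blk changed by -3.37, -4.08, -1.59 and -1.22 in antibody-treated cells and by -4.00, -4.24, -1.99 and -1.21 in untreated cells.

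Pax5, the factor that commits cells to the B lineage, was the B cell gene that was higher. It read 52.8, 57.2 and 83.4 in antibody-treated cells and 46.2, 63.8 and 63.9 in untreated cells, against 14.7 to 33.5 in lung with a median of 24.0. Its log2 change was 1.25 and 1.14. On 13 of 16 lung arrays it lay under the floor, and a second probe set, with means of 26.5 ± 7.57, 29.4 ± 3.97 and 27.1 ± 5.32 in antibody-treated cells, untreated cells and lung, gave 0.19 and 0.29. Averaged over its probe sets, Pax5 changed by 0.72 in both cell groups and was not called. Without normalization it changed by 0.98 and 0.86 and was not called either.

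All 4 pan-leukocyte genes were lower in both cell groups. Ptprc, the CD45 phosphatase of all nucleated blood cells, read 0.00649, 0.0453 and 0.0146 in antibody-treated cells and 0.862, 0.0456 and 1.33 in untreated cells, against 1899 to 2684 in lung with a median of 2297. By this set, untreated cells were at least 91.6-fold lower. A second, dim Ptprc set, at 7.60 to 60.1 in lung, changed by -0.48 in antibody-treated and -0.44 in untreated cells. Its limma adjusted p was 0.0649 and 0.0878, and it had r = -0.36 with the set used across lungs. Cd52, a small surface glycoprotein of lymphocytes and monocytes, averaged 4.03 ± 2.63 and 7.05 ± 4.89 in the cells, against 2468 ± 359 in lung. Coro1a, an actin regulator of leukocytes, averaged 22.1 ± 6.94 and 20.7 ± 7.74, against 1956 ± 247 in lung. Cd53, a leukocyte tetraspanin, kept more signal in the cells, at 90.3, 125 and 20.9 in antibody-treated and 105, 38.1 and 29.9 in untreated cells, against 1090 to 1808 in lung, and its cell arrays differed among themselves by more than those of the other 3 genes.

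Genes of the same lineages outside the member list moved the same way in number. Over all genes tested, 23.9% were lower and 17.2% higher in antibody-treated cells, and 23.7% and 17.8% in untreated cells. The filter was passed by 21 of the 25 T cell, 23 of the 24 B cell and 17 of the 19 NK and cytotoxic genes. All of the further pan-leukocyte and receptor signal genes passed it. Of 25 measured further T cell genes, 16 were called lower in antibody-treated and 18 in untreated cells, and none was called higher. The survival receptor gene Il7r at -4.08 and Thy1 at -3.27 led in untreated cells. Ctla4 and Trat1 were above lung there, at 0.61 and 0.64, under 2-fold. Txk and Cd40lg, not past the filter, were at 0.65 and 1.00. Of 24 further B cell genes, 20 were lower and 1 was higher in each cell group, led by the joining chain gene Jchain at -8.06 in antibody-treated and -8.03 in untreated cells and by Fcmr, the receptor for immunoglobulin M, at -4.17 in untreated cells. The B cell gene that was higher in untreated cells was the lectin gene Siglecg, at 1.02. Of 19 further NK and cytotoxic genes, 10 were lower and 2 higher in each cell group, with Tyrobp, an adaptor shared with myeloid cells, at -7.11 and Il18r1 at -5.87 in untreated cells, and with the granzyme gene Gzmm at 1.40 and Il18rap at 1.03. Of 19 further pan-leukocyte genes, 17 were lower in each cell group, led by Laptm5 and Lcp1, both at -5.94 in untreated cells. Of 17 genes that carry or restrain receptor signals in lymphocytes, 11 were lower in each cell group, with Sla at -3.76 and Pag1 at -3.49 in untreated cells, and 1 was higher in antibody-treated and 2 in untreated cells, namely the adaptor genes Grap2 and Bcl10 at 1.02 and 1.03.

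Lymphocyte genes were not the only tissue genes to fall. All 9 macrophage, all 7 endothelial and all 6 alveolar type 2 marker genes were lower in each cell group, as were 9 of 10 neutrophil genes. Other lists were lower in part: 4 of 5 erythroid, 4 of 7 platelet, 3 of 7 dendritic, 2 of 7 thymus precursor and 2 of 8 lymphoid follicle stroma genes. Over all genes tested, 23.9% were lower in antibody-treated and 23.7% in untreated cells. The summed intensity of the endothelial markers was 57.3 to 71.5 in antibody-treated and 63.2 to 75.0 in untreated cells, against 9554 to 17478 in lung. For macrophage markers the sums were 474 to 694 in antibody-treated and 485 to 756 in untreated cells, against 11128 to 20429 in lung. The cells are 1 type and lung is many, and which cell type carries each transcript in lung was not tested.

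Between antibody-treated and untreated cells no lymphocyte gene was called. Of the 33 measured members, 7 passed the filter on low values in the 6 cell arrays, and none was called by limma at an adjusted p under 0.05. Over all genes, 3 of 12711 were called lower (0.0236%) and 0 higher (0.0%). Without the filter, none of the 33 had a limma adjusted p under 0.05. Across the 33, the log2 difference of antibody-treated and untreated cells had a median of -0.00 and lay between -0.33 and 0.64.

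Zap70 gave the one difference among the 7 whose 95% interval left out 0. Its change was -0.28 ± 0.12 (SE), with an interval between -0.55 and -0.00 and a limma adjusted p of 1.00, and each antibody-treated sample lay below each untreated one. Of the 7 members that passed the filter, Zap70 alone did not overlap between the groups, where 1.68% of the 12711 tested genes were lower without overlap and 1.24% higher. Among members that did not pass, Ptprc was lower and Blnk, Cr2 and Ncr1 were higher without overlap, with Blnk at 7.29, 13.2 and 9.09 in antibody-treated cells and 0.0313, 3.49 and 0.107 in untreated cells. The cell values of these 4 genes were all under the floor, where intensities have no order. The 95% interval of Cd53 ran between -0.93 and 1.49, so it left room for a 2-fold rise in Cd53, while the intervals of the other 6 stayed within 2-fold.

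Within lung, lymphocyte genes differed from animal to animal by more than most genes. Pax5 was too dim in lung to enter, and the remaining 32 members had a median SD of 0.31 on the log2 scale over the 16 lungs, where the median over 13674 genes was 0.20. B cell genes had the highest median SD of the 4 groups, at 0.37, followed by NK and cytotoxic genes at 0.32 and T cell genes at 0.30, while the pan-leukocyte genes had 0.20.

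Cd79a was the most variable member, with an SD at percentile 98.2 among all genes. It ranged between 224 in lung 4 and 1007 in lung 10, a ratio of 4.49, with a median of 517. Ms4a1 was lowest and highest in the same 2 lungs, at 159 and 656. Ptprc, by the set used, varied least, with a highest to lowest ratio of 1.41 and an SD at percentile 22.8. Tbx21 had the widest ratio, 5.05, but its lowest value of 13.9 was under the floor. Low lungs were shared between genes: lung 4 was the lowest for 6 of the 10 NK and cytotoxic genes, and lung 11 for all 4 pan-leukocyte genes.

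**Figure D2:**
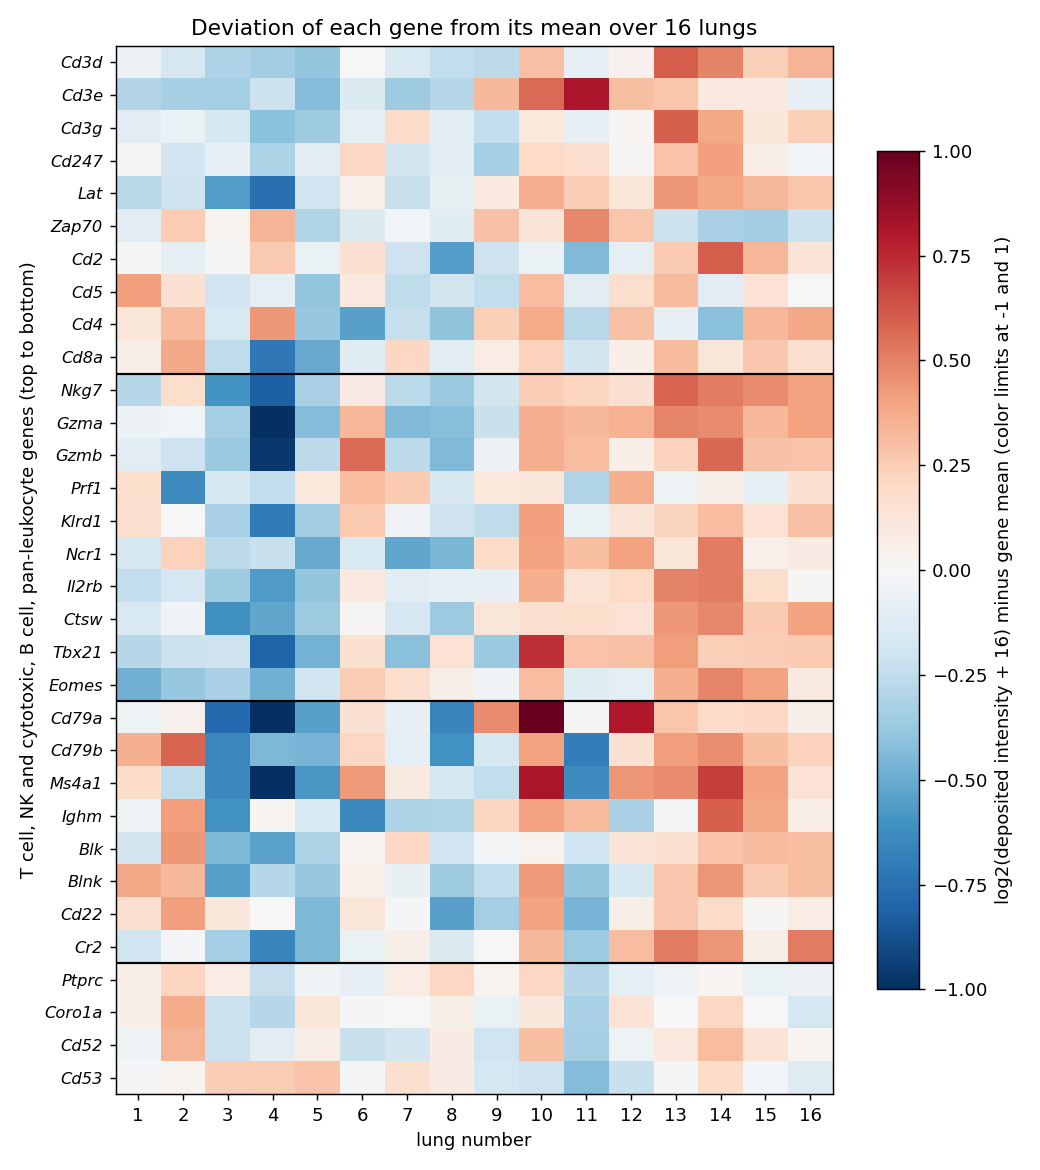
Deviation of 32 lymphocyte genes from their own mean over 16 lungs, as log2(deposited intensity + 16) minus that mean, with genes down the page by group and lungs 1 to 16 across. Red is above and blue below the gene's mean; lungs 3, 4, 5 and 8 are blue for most NK and B cell genes, lungs 10 and 13 to 16 red, and the pan-leukocyte rows are pale.

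Averaged over the genes of a group, the NK and cytotoxic genes were lowest in lung 4, at -0.56 from their mean on the log2 scale, and highest in lung 14, at 0.39. B cell genes were lowest in lung 3, at -0.49, and highest in lung 10, at 0.46. T cell genes spanned -0.32 in lung 5 and 0.24 in lung 13. Pan-leukocyte genes followed another order, lowest in lung 11 at -0.30 and highest in lung 2 at 0.36. In lung 11 the NK and cytotoxic genes were above their mean, at 0.16, while the B cell genes were below theirs, at -0.26.

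The members rose and fell together across lungs in blocks that cut across lineage. Over the 496 pairs of members the median Pearson r was 0.44, and 20.8% of pairs had r of at least 0.7, where 2.06% of all gene pairs did. These correlations are descriptions over 16 lungs that share array processing. NK and cytotoxic genes were the tightest group, with a median r of 0.74 over 45 pairs, followed by B cell genes at 0.64 over 28 pairs. T cell genes correlated less among themselves, at 0.35 over 45 pairs, than with NK and cytotoxic genes, at 0.52 over 100 pairs. With the means of the 2 array sets and of the sex labels removed, the medians were 0.59 for NK and cytotoxic pairs, 0.75 for B cell pairs, 0.19 for T cell pairs, 0.33 for T with NK pairs and 0.39 over all members. Pan-leukocyte genes had a median r of 0.11 with T cell genes and with NK genes and of 0.41 with B cell genes.

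The closest pairs were Cd79b with Blnk at r = 0.94, Gzma with Gzmb at 0.94, Nkg7 with Ctsw at 0.93 and Lat with Ctsw at 0.92. Cd3d and Cd3g, the head-to-head neighbours whose sequences stand above, had r = 0.89, while Cd3e had r = 0.45 with Cd3d. In lung 13 both Cd3d and Cd3g were at their highest, 348 and 277, and Cd3e was at its highest, 204, in lung 11. Of the T cell genes, Lat tracked NK genes most closely. By the sets used, Zap70 had no r above 0.46 with any member and Prf1 none above 0.38. The other sets of Zap70 had r of only -0.41 and 0.06 with the set used, and the other set of Prf1 had 0.27. How those other sets varied with other members was not computed. Cd53 ran against Cd3e at r = -0.75 and against Cd79a at -0.66.

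**Figure D3:**
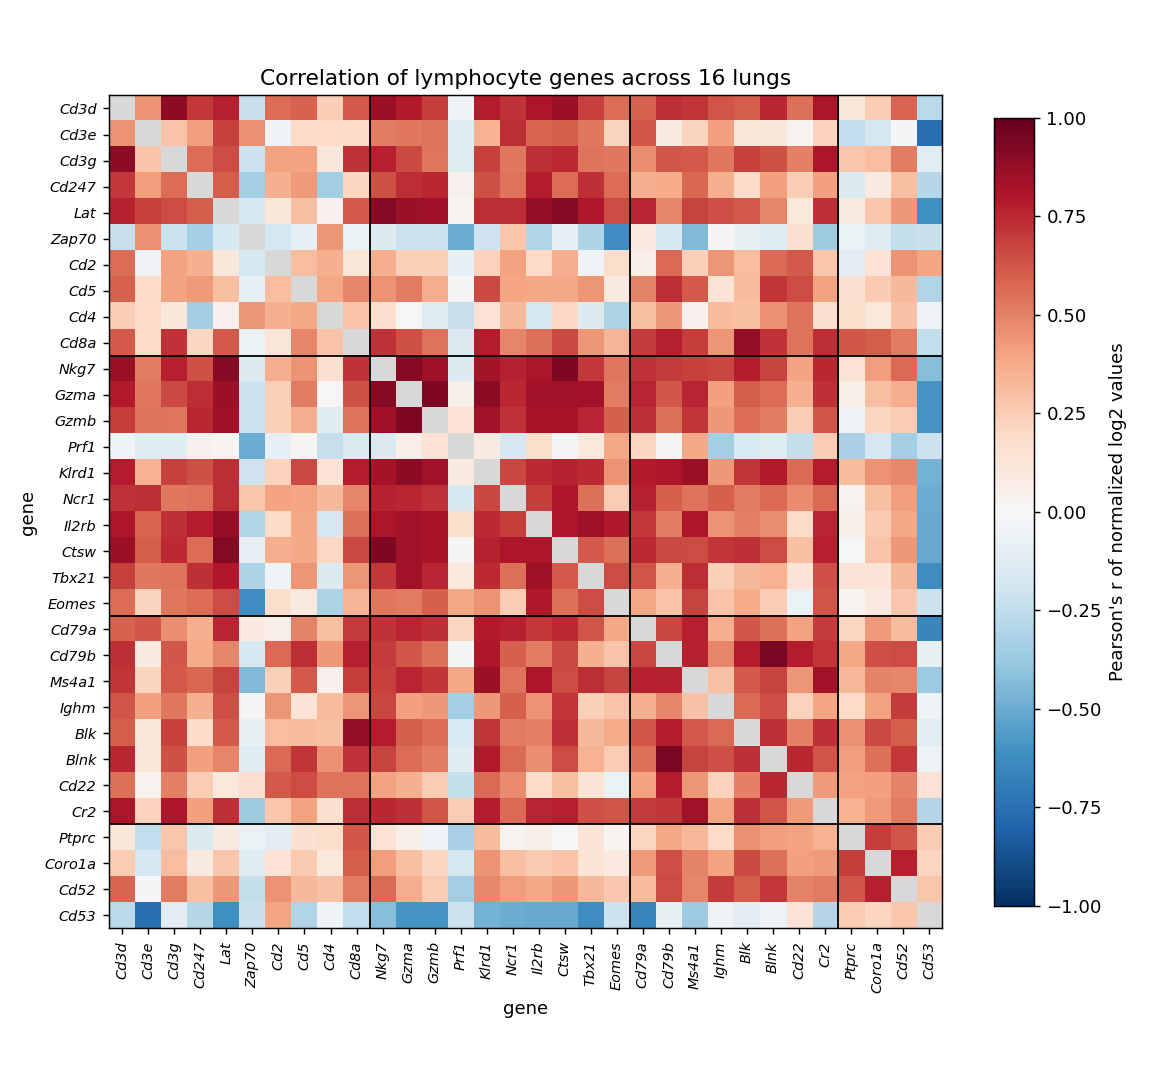
Pearson correlation of every pair of 32 lymphocyte genes across 16 lungs, from normalized log2 values, with genes in the same order on both axes and lines between the T cell, NK and cytotoxic, B cell and pan-leukocyte groups. Red is positive, blue negative and the diagonal is grey; the NK and B cell blocks are mostly dark red, and the rows of Zap70, Prf1 and Cd53 are pale or blue.

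One gene of each group was taken as an anchor, and all 13673 other genes were ranked by their r with it. Nkg7 had r of at least 0.7 with 14 of 31 members, where 1.92% of genes did, and Cd79a with 11 of 31, where 0.995% did. Cd3e reached it with 1 of 31, Ncr1, where 0.622% of genes did, and Ptprc with none, where 0.146% did.

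The non-members closest to Nkg7 were the chemokine gene Ccl5 at r = 0.96, Ncald at 0.93, the immunoproteasome gene Psmb9 at 0.92, Arhgap29 at 0.91 and the lymphocyte GTPase gene Gimap3 at 0.91. Those closest to Cd79a were the B cell tetraspanin gene Cd37 at 0.92, the chemokine receptor gene Cxcr6 at 0.92, Cxxc5 at 0.90, Gimap3 at 0.88 and Cd7 at 0.88. Those closest to Cd3e were Acsf2 at 0.84, Tnks1bp1 at 0.83, Trp53i11 at 0.83, Itfg2 at 0.82 and Npr1 at 0.81. With the means of array set and sex label removed, Ccl5 kept r = 0.93 with Nkg7 and Cd37 kept 0.90 with Cd79a, whereas the 5 neighbours of Cd3e had between -0.02 and 0.55. Averaged markers of other cell types moved with the anchors too. Of the 7 measured genes listed as thymus precursor genes, only 3 passed the lung filter, so their mean does not stand for the list. That mean had r = 0.83 with Cd79a (rho 0.78), 0.65 with Cd3e (rho 0.67) and 0.51 with Nkg7 (rho 0.45). The 7 endothelial genes had r = 0.65 with Nkg7 (rho 0.60) and 0.65 with Cd79a (rho 0.48), and the 4 erythroid genes had 0.51 with Cd79a (rho 0.51). Macrophage genes had r = -0.44 with Nkg7 and with Cd79a, but rho of only -0.19 and -0.03, and were highest in lungs 3 and 4. Their part in the co-variation was not tested.

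Nkg7 and Cd79a, the NK and B cell anchors, had r = 0.72 over the 16 lungs (Spearman's rho 0.72, two-sided permutation p = 0.00150 with 100000 permutations, Benjamini-Hochberg adjusted p = 0.0090 over the 6 anchor pairs). Within labels, whose difference was not tested, it was 0.89 in the 8 lungs labelled male, lungs 3 and 4 among them (exact permutation, adjusted p = 0.000298), and -0.52 in the 8 labelled female (exact permutation, adjusted p = 0.546), and with the label means removed it was 0.41 (permutation, adjusted p = 0.302). Leaving out lungs 3 and 4, which are also the 2 farthest from the median of Nkg7, gave 0.56 (permutation, adjusted p = 0.107), past the threshold no longer. In lungs 1 to 4 and 9 to 12 r was 0.79 (exact permutation, adjusted p = 0.126). In the other 8, which hold neither lung 3 nor lung 4, it was 0.88 (exact permutation, adjusted p = 0.000149). Both sets hold lungs of both labels, so neither r is separate from label. With the means of both array set and sex label removed r was 0.71 (permutation, adjusted p = 0.0069). That permutation took no account of the means removed, so its p may be too small.

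Cd3e and Cd79a had r = 0.62 (rho 0.74, permutation p = 0.00948, adjusted p = 0.028), and the relation did not hold within labels, at 0.00 in lungs labelled male and 0.25 in those labelled female. With the means of array set and label removed it was -0.24. Without the 2 lungs farthest from the median of Cd3e it was 0.70. Cd3e and Nkg7 had r = 0.52 (rho 0.55, permutation p = 0.036, adjusted p = 0.072), and 0.53 without the 2 farthest lungs. It was 0.08 in lungs labelled male, -0.34 in those labelled female and -0.15 with label means removed, so it did not hold within labels either. In lungs 5 to 8 and 13 to 16 it was 0.95 (exact permutation, adjusted p = 0.0042). Lungs 5 to 8 carry the label male and lungs 13 to 16 the label female, so this r is not separate from label. With array set means removed r was 0.66 and passed the threshold (permutation, adjusted p = 0.0189), though this p may be too small, as the permutation took no account of the means removed. With the means of both array set and label removed r was 0.25 (rho 0.51, permutation, adjusted p = 0.380 for r). Ptprc had r of -0.25 with Cd3e, 0.14 with Nkg7 and 0.22 with Cd79a, and none of these passed the test (permutation, adjusted p = 0.503, 0.595 and 0.503). With the probe sets of a gene averaged, r was -0.20, 0.36 and -0.04 in the same order, and none passed either.

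**Figure D4:**
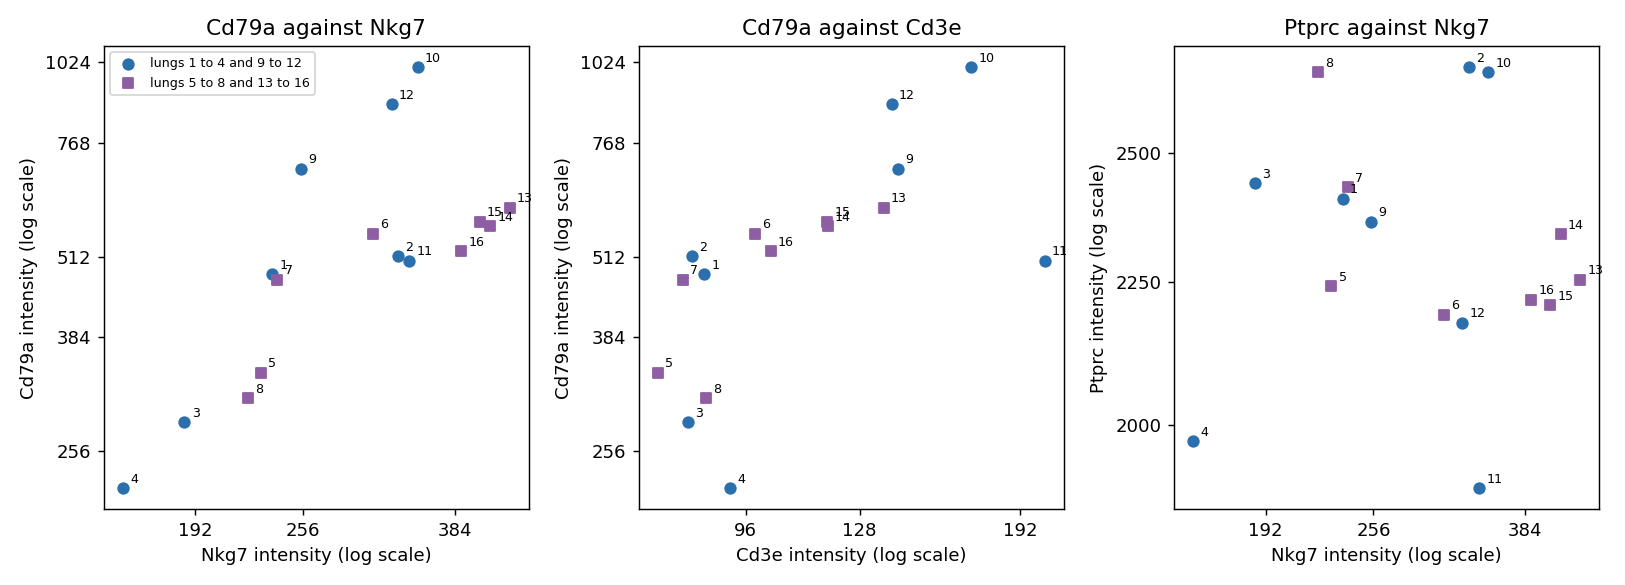
Intensity of Cd79a against Nkg7, of Cd79a against Cd3e and of Ptprc against Nkg7 in 16 lungs, both axes on a log scale, with lung numbers beside the points and the 2 array sets as circles and squares. Lungs 3 and 4 are at the low end of Nkg7 and Cd79a, lung 11 is highest for Cd3e at 204, and Ptprc spans 1899 to 2684 with no trend along Nkg7.

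For immunoglobulin M the spread between lungs depended on the probe set. The annotation lists 11 sets for Ighm. The set used ranged between 4279 and 10140 over the lungs, and another, at 2966 to 7615, had r = 0.93 with it. A further 4 sets, of which one ranged between 240 and 2586, had r of 0.988 to 0.998 among themselves and 0.29 to 0.31 with the set used. The log2 changes of these 6 sets lay between -8.68 and -3.77 in antibody-treated cells and between -8.45 and -4.01 in untreated cells. Of the rest, 2 were also well lower, at -8.30 and -3.23 in antibody-treated and -7.94 and -3.28 in untreated cells, and 3 were dim in lung and changed by -0.27 to -0.47 and by -0.06 to -0.42.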

How the data were processed

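RNA of 22 samples was hybridized to Affymetrix arrays of 45101 probe sets. The deposited intensity values are on a linear scale and were summarized with PLIER, per the submitters' processing notes; its settings and any scaling are not given in the sources used here. Mean intensity per array was 269 to 311, and precision is limited by how many arrays there are. Without 64 control probe sets, 45037 remained, of which 34945 were annotated to 1 gene symbol, 932 to several and 9160 were not listed.

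Values were taken as log2(intensity + 16), quantile normalized, and reduced to 1 probe set per gene. A gene was tested when above the 40th percentile on at least 3 of the compared arrays, with limma 3.58.1 in R 4.3.3 (trended moderated variances, two-sided, Benjamini-Hochberg) on all 22 arrays for the cells against lung and on the 6 cell arrays for the antibody. The adjusted p threshold was 0.05, with at least 2-fold against lung. Correlations used 13674 genes above the percentile on at least 8 lung arrays. Anchor pairs had permutation tests, exact for 8 lungs. Where means were removed, residuals were permuted freely over all 16 lungs, which takes no account of those means and can make p too small. The scripts were tested on simulated data. All 34 members may be named, with the 5 closest non-members of the anchors Cd3e, Nkg7 and Cd79a, and the 2 largest and any opposite changes of the other lists. Members and lists were chosen with earlier results of these data known; the promoter words and the array sets were chosen after values were seen. Samples are called biological replicates in the labels. The planned search of receptor proteins for signalling motifs was not run.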

Additional observations from a re-analysis of the deposited data

How the results depend on the processing

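Alternatives covered normalization, offset, filter, probe sets, variance trend, array weights, the arrays in the fit and each array left out; leaving out lungs 3 and 4 or either set of 8 lungs, and the array set strata, were added after seeing the data. No called change of a member turned its direction. Members lower than lung numbered 20 to 28 over the settings in each cell group, and members higher were 1 without normalization, with the 60th percentile filter or with probe sets averaged per gene and 0 with an offset of 64, in both cell groups. Leaving out 1 cell array gave 26 to 28 lower and 2 higher in antibody-treated cells and 27 to 28 lower and 2 higher in untreated cells. Between antibody-treated and untreated cells, genes called were 1 with an offset of 1 and 0 to 3 with an array left out (1 without untreated replicate 1, 0 without untreated replicate 3). Same-numbered cell samples deviated together with r of 0.07, -0.26 and 0.07, so the numbers do not pair them, and the replicate block gave 0 members lower and 0 higher. The r of Cd3e with Cd79a was 0.0011 and 0.25 within lungs labelled male and female, 0.14 with label means removed, 0.65 without lungs 3 and 4 (permutation, adjusted p = 0.0693), 0.54 within lungs 1 to 4 and 9 to 12, and -0.24 with array set and label means removed. The r of Nkg7 with Cd79a was -0.52 within lungs labelled female, 0.41 with label means removed, 0.56 without the 2 farthest lungs, which are lungs 3 and 4, and 0.79 within lungs 1 to 4 and 9 to 12. The r of Cd3e with Nkg7 was 0.95 within lungs 5 to 8 and 13 to 16, a set that holds both labels, and 0.66 with array set means removed. With each lung left out, r was 0.54 to 0.78 for Cd3e with Cd79a, which lost its call without lung 3, 5, 8 or 10, 0.48 to 0.59 for Cd3e with Nkg7, which passed without lung 2 or 9, 0.65 to 0.77 for Nkg7 with Cd79a, -0.46 to 0.05 for Cd3e with Ptprc, -0.02 to 0.26 for Nkg7 with Ptprc and 0.04 to 0.37 for Cd79a with Ptprc. The cause of these changes was not tested.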
